A study of Solanum lycopersicum with 12 samples.

Results

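Of 35768 gene models measured in tomato (Solanum lycopersicum) roots, 79 stood apart between the slstop1 mutant and the wild type (WT) in the same direction whether or not aluminium (Al) was present. They were chosen from the mean FPKM of each group, where FPKM is a fragment count scaled for transcript length and library total. For each gene and dose the genotype ratio was taken as log2((slstop1 + 1)/(WT + 1)). A gene was a member if this ratio was at least 0.8 in size with the same sign at 0 and at 60 µM Al, if the slstop1 and WT libraries did not overlap at either dose, and if at least 1 group averaged 3 FPKM or more. This expression minimum was met by 13261 genes, while 10712 of the gene models were listed at 0 in all 12 libraries. Among the members, 38 were higher and 41 lower in slstop1.

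The libraries came from roots of 20-day-old plants at pH 4.7, in 4 groups of 3 biological replicates: slstop1 with 60 µM Al, WT with 60 µM Al, slstop1 without Al (0 µM) and WT without Al. The labels name neither the lesion in slstop1 nor a second mutant line, so the loss of SlSTOP1 and any other heritable difference between the lines cannot be told apart. In whole roots, fewer cells of a type and less RNA per cell cannot be told apart either. The deposited table pairs its identifiers with no gene names, so root markers were not checked and genes are given by identifier. The chromosome number is the one in the identifier.

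STOP1 is a C2H2 zinc finger transcription factor. In Arabidopsis it is needed for root growth in acid and Al-containing soil, where Al ions arrest the root tip. Its best known targets there encode a malate channel and a citrate transporter, whose released acids bind Al outside the root. STOP1 protein is also present without Al, and in Arabidopsis part of its targets differ between mutant and wild type at low pH alone.

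The mutated gene itself was a member. Its identifier, Solyc11g017140.2 (chromosome 11), comes from published nomenclature and not from the table. SlSTOP1 read 29.1, 30.0 and 27.7 FPKM in slstop1 with Al, against 85.8, 80.8 and 88.6 FPKM in WT with Al. Without Al it read 39.8, 34.7 and 33.5 FPKM in slstop1, against 72.7, 79.2 and 56.0 FPKM in WT. All slstop1 libraries lay below all WT libraries. Ordered by the smaller of the 2 ratios in size, the gene came 34th of the 41 lower members. Its genotype ratios were -1.52 with Al and -0.92 without Al.

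The rule selected few genes in either direction. At 60 µM Al, whatever happened at the other dose, 1.86% of the 13261 genes were higher and 10.4% lower in slstop1 by the same criteria, and at 0 µM Al 1.33% were higher and 0.641% lower. Both doses together left the 38 higher genes (0.287%) and the 41 lower genes (0.309%), while 13 genes (0.0980%) met the criteria at both doses in opposite directions. These values made the selection, so they describe it and test nothing. At the edge of the rule, Solyc02g071950.1 (smaller ratio 0.81 in size) and Solyc03g083770.1 (0.83) were just inside. Just outside were Solyc04g074960.3 at 0.799 and Solyc02g080450.1 at 0.795.

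**Figure D1:**
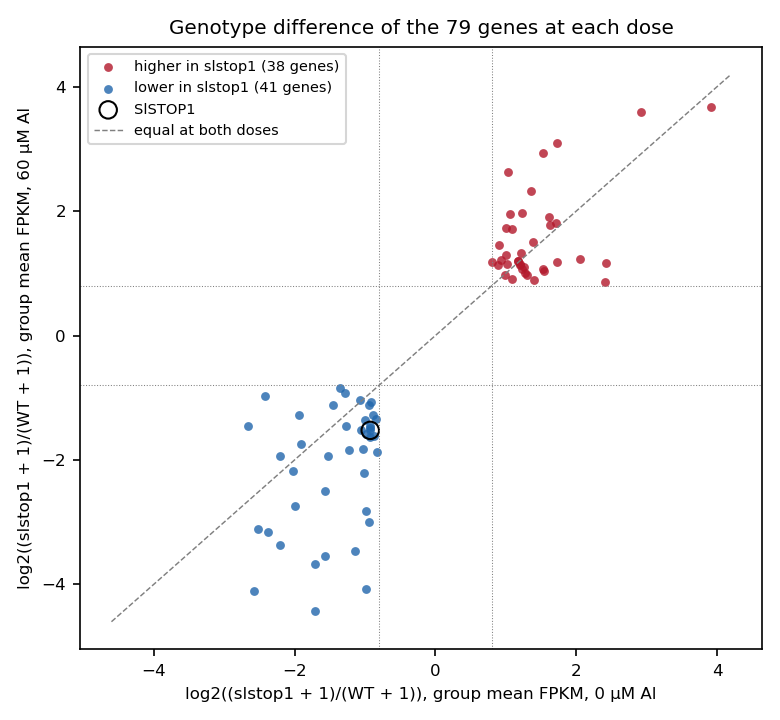
Genotype ratio, log2((slstop1 + 1)/(WT + 1)) of group mean FPKM, at 60 µM Al (vertical) against 0 µM Al (horizontal) for the 79 genes. Dotted lines mark 0.8, which the rule required. The higher genes lie on both sides of the dashed line of equal ratios, and 32 of the 41 lower genes have the larger ratio with Al.

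The ratios were set side by side between doses. Among the higher genes the ratio had a median of 1.21 with Al and 1.25 without Al, and it was larger with Al in 22 of 38 genes. Among the lower genes the medians were -1.74 with Al and -1.23 without Al, and the ratio was larger in size with Al in 32 of 41 genes. Over all 13261 genes the ratio was larger in size with Al in 70.6%, and its median was -0.184 with Al and -0.00148 without Al. Median-of-ratios scaling moved that median with Al to -0.00895 and that without Al to -0.00729. Under that scaling 48 genes were higher and 42 lower, including all 38 of the higher members and 38 of the lower ones.

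Members also differed in level. Averaged over the 12 libraries, the higher genes had a median of 59.2 FPKM (range 1.49 to 4575 FPKM) and the lower genes one of 14.2 FPKM (1.25 to 1624 FPKM). All 13261 genes had a median of 13.1 FPKM. A mean of at least 100 FPKM was reached by 16 of the 38 higher genes (42.1%) and 6 of the 41 lower genes (14.6%), beside 10.5% of all 13261. The rule used these same values, and the added 1 shrinks the ratios of low genes. The levels therefore describe the selection and test nothing.

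Among the higher genes, the largest ratio at each dose belonged to Solyc03g036460.2 (chromosome 3). Its libraries read 32.5, 56.1 and 18.3 FPKM in slstop1 with Al, against 5.33, 0.08 and 0.20 FPKM in WT with Al. Without Al they read 6.72, 28.5 and 27.4 FPKM in slstop1, against 0, 1.35 and 0 FPKM in WT. The gene was at or under 1.35 FPKM in 5 of the 6 WT libraries and varied several-fold among the slstop1 libraries, with genotype ratios of 3.67 with Al (5.01 without replicate 1 of WT with Al) and 3.92 without Al. Solyc03g042520.2, placed 4 genes further along among those with the expression minimum, had the same form at a lower level: 4.83, 4.03 and 1.73 FPKM in slstop1 with Al against 0.69, 0.08 and 0.19 FPKM in WT with Al. Without Al it read 0.30, 1.88 and 4.14 FPKM in slstop1 and was listed at 0 in all 3 WT libraries. A listed 0 in such a table can be a failed estimate and gives no fold.

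Solyc07g009310.3 (chromosome 7) combined a wide gap with a high level. It stood at 27.2, 52.2 and 46.2 FPKM in slstop1 with Al, against 4.16, 1.30 and 2.22 FPKM in WT with Al. Without Al it stood at 87.1, 107 and 136 FPKM in slstop1, against 9.13, 14.4 and 17.6 FPKM in WT. The gene was lower with Al than without Al in both genotypes, and the genotype ratio was 3.59 with Al and 2.92 without Al. Solyc07g005100.3, near the start of the same chromosome by identifier, went the other way with Al and held an even gap as deposited. It averaged 453 ± 48.7 FPKM in slstop1 roots against 159 ± 39.5 FPKM in WT with Al, and 68.1 ± 9.75 FPKM in slstop1 roots against 25.4 ± 5.30 FPKM in WT without Al (SD, n = 3), with ratios of 1.51 with Al and 1.39 without Al.

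The most abundant member was Solyc03g020010.1 on chromosome 3. It read 11653, 12258 and 11808 FPKM in slstop1 with Al, against 5189, 6044 and 6868 FPKM in WT with Al. Without Al it read 245, 276 and 201 FPKM in slstop1, against 121, 121 and 120 FPKM in WT. By group mean it ranked 1st of all gene models in slstop1 with Al, 2nd in WT with Al, 572nd in slstop1 without Al and 1083rd in WT without Al. It held 1.66% of the summed FPKM in slstop1 with Al and 0.856% in WT with Al. As deposited, the genotype ratio was close to 1 on the log2 scale at each dose (0.98 with Al, 0.99 without Al), although its level was far higher with Al. After median-of-ratios scaling the gene's ratios were 1.2 with Al and 0.985 without Al, and after quantile normalisation 0.85 and 0.91. Its neighbour in identifier order, Solyc03g020015.1, was also a member. With Al it averaged 1123 ± 141 FPKM in slstop1 roots against 605 ± 176 FPKM in WT. Without Al it averaged 18.5 ± 6.42 FPKM in slstop1 roots against 6.40 ± 2.79 FPKM in WT (SD, n = 3). The ratio of Solyc03g020015.1 with Al was 0.89, and 0.67 without replicate 1 of WT with Al, under the 0.8 of the rule. Second in level was Solyc10g086100.2 (chromosome 10), at 7775, 8555 and 8568 FPKM in slstop1 with Al against 3709, 3186 and 4354 FPKM in WT with Al. Without Al it was at 1763, 2689 and 1784 FPKM in slstop1 against 1313, 1050 and 727 FPKM in WT. The ratios were 1.15 with Al and 1.01 without Al. Leaving out replicate 2 of slstop1 without Al brought the latter to 0.78, under the 0.8 of the rule.

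**Figure D2:**
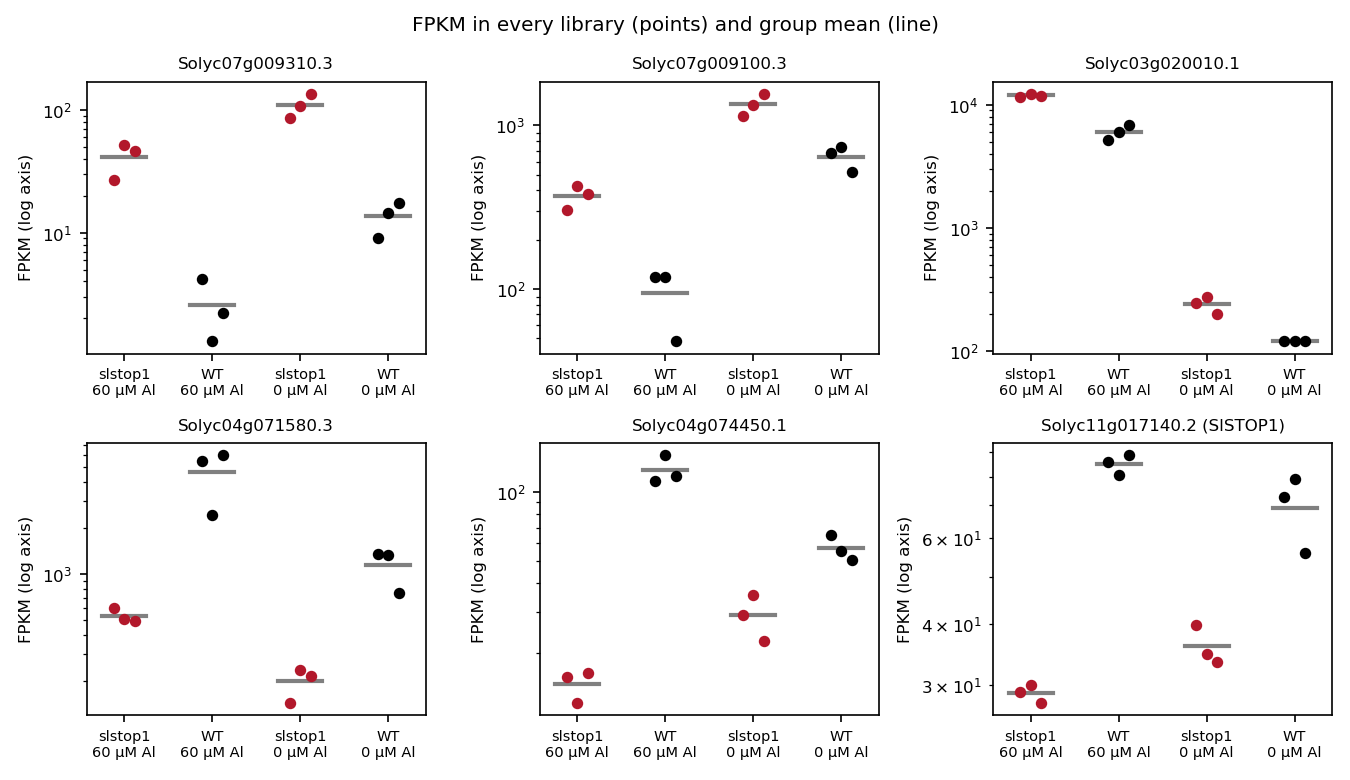
FPKM (log axis) of 6 members in every library (points; slstop1 red, WT black) with the group mean (grey line). Solyc07g009310.3, Solyc07g009100.3 and Solyc03g020010.1 are higher in slstop1 in each dose pair, and Solyc04g071580.3, Solyc04g074450.1 and SlSTOP1 are lower; slstop1 and WT points do not overlap within a dose.

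Among the lower genes, Solyc04g071580.3 on chromosome 4 was both the most abundant and 2nd by the size of its smaller ratio. It read 598, 507 and 496 FPKM in slstop1 with Al, against 5450, 2425 and 5974 FPKM in WT with Al. Without Al it read 144, 237 and 216 FPKM in slstop1, against 1360, 1331 and 752 FPKM in WT. By group mean it ranked 5th of all gene models in WT with Al and 197th in slstop1 with Al, and the ratios were -3.11 with Al and -2.52 without Al. Solyc03g082520.1 (chromosome 3) was next in level, at 500 ± 77.8 FPKM in slstop1 roots against 2259 ± 517 FPKM in WT with Al. Without Al it was at 13.6 ± 4.45 FPKM in slstop1 roots against 58.2 ± 8.93 FPKM in WT (SD, n = 3), so that the genotypes differed about equally at each dose (-2.17 with Al, -2.02 without Al). Solyc10g076510.2 stood at 50.5 ± 3.57 FPKM in slstop1 roots against 144 ± 46.5 FPKM in WT with Al. Without Al its libraries were at 146, 181 and 148 FPKM in slstop1, against 199.5, 507 and 199.7 FPKM in WT. One WT library thus carried the WT mean without Al, and without that library the ratio was -0.33 in place of -0.93, under the 0.8 in size that the rule required.

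Solyc06g005100.3 (chromosome 6) had the largest smaller ratio in size among the lower genes (-4.10 with Al, -2.57 without Al). It was listed at 0, 0.37 and 0 FPKM in slstop1 with Al, against 15.4, 30.2 and 9.37 FPKM in WT with Al. Without Al it was listed at 0 in all 3 slstop1 libraries, against 6.65, 6.07 and 2.12 FPKM in WT. Solyc04g074540.2 was listed at 0 in all 6 slstop1 libraries, against 1.47, 2.36 and 1.41 FPKM in WT with Al and 5.41, 9.11 and 1.50 FPKM in WT without Al. It was the single member at 0 throughout 1 genotype. Solyc04g076260.2 was at 0 in 5 slstop1 libraries and at 1.47 FPKM in the other, against 2.58 to 3.32 FPKM in WT with Al and 3.61 to 8.53 FPKM in WT without Al.

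Solyc04g009780.1, Solyc01g105720.2 and Solyc08g078650.3 were lower in slstop1 without being listed at 0. The first averaged 11.3 ± 3.48 FPKM in slstop1 roots against 109 ± 21.2 FPKM in WT with Al, and 8.12 ± 1.54 FPKM in slstop1 roots against 46.2 ± 7.61 FPKM in WT without Al (SD, n = 3). Solyc01g105720.2 averaged 3.47 ± 0.540 FPKM in slstop1 roots against 44.9 ± 18.1 FPKM in WT with Al, and 8.23 ± 1.32 FPKM in slstop1 roots against 41.8 ± 8.11 FPKM in WT without Al. For Solyc08g078650.3 the means were 9.24 ± 1.88 FPKM in slstop1 roots against 67.3 ± 30.9 FPKM in WT with Al, and 0.213 ± 0.0551 FPKM in slstop1 roots against 3.84 ± 1.30 FPKM in WT without Al. Each of these genes was thus several-fold lower in slstop1 at each dose. Solyc01g067870.3 was less even, listed at 0 in slstop1 with Al against 0.65, 6.10 and 0.28 FPKM in WT with Al. In the absence of Al it read 2.48, 12.4 and 3.53 FPKM in slstop1, against 19.8, 43.5 and 13.9 FPKM in WT. Its ratio with Al was -1.74, and -0.55 without replicate 2 of WT with Al.

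**Figure D3:**
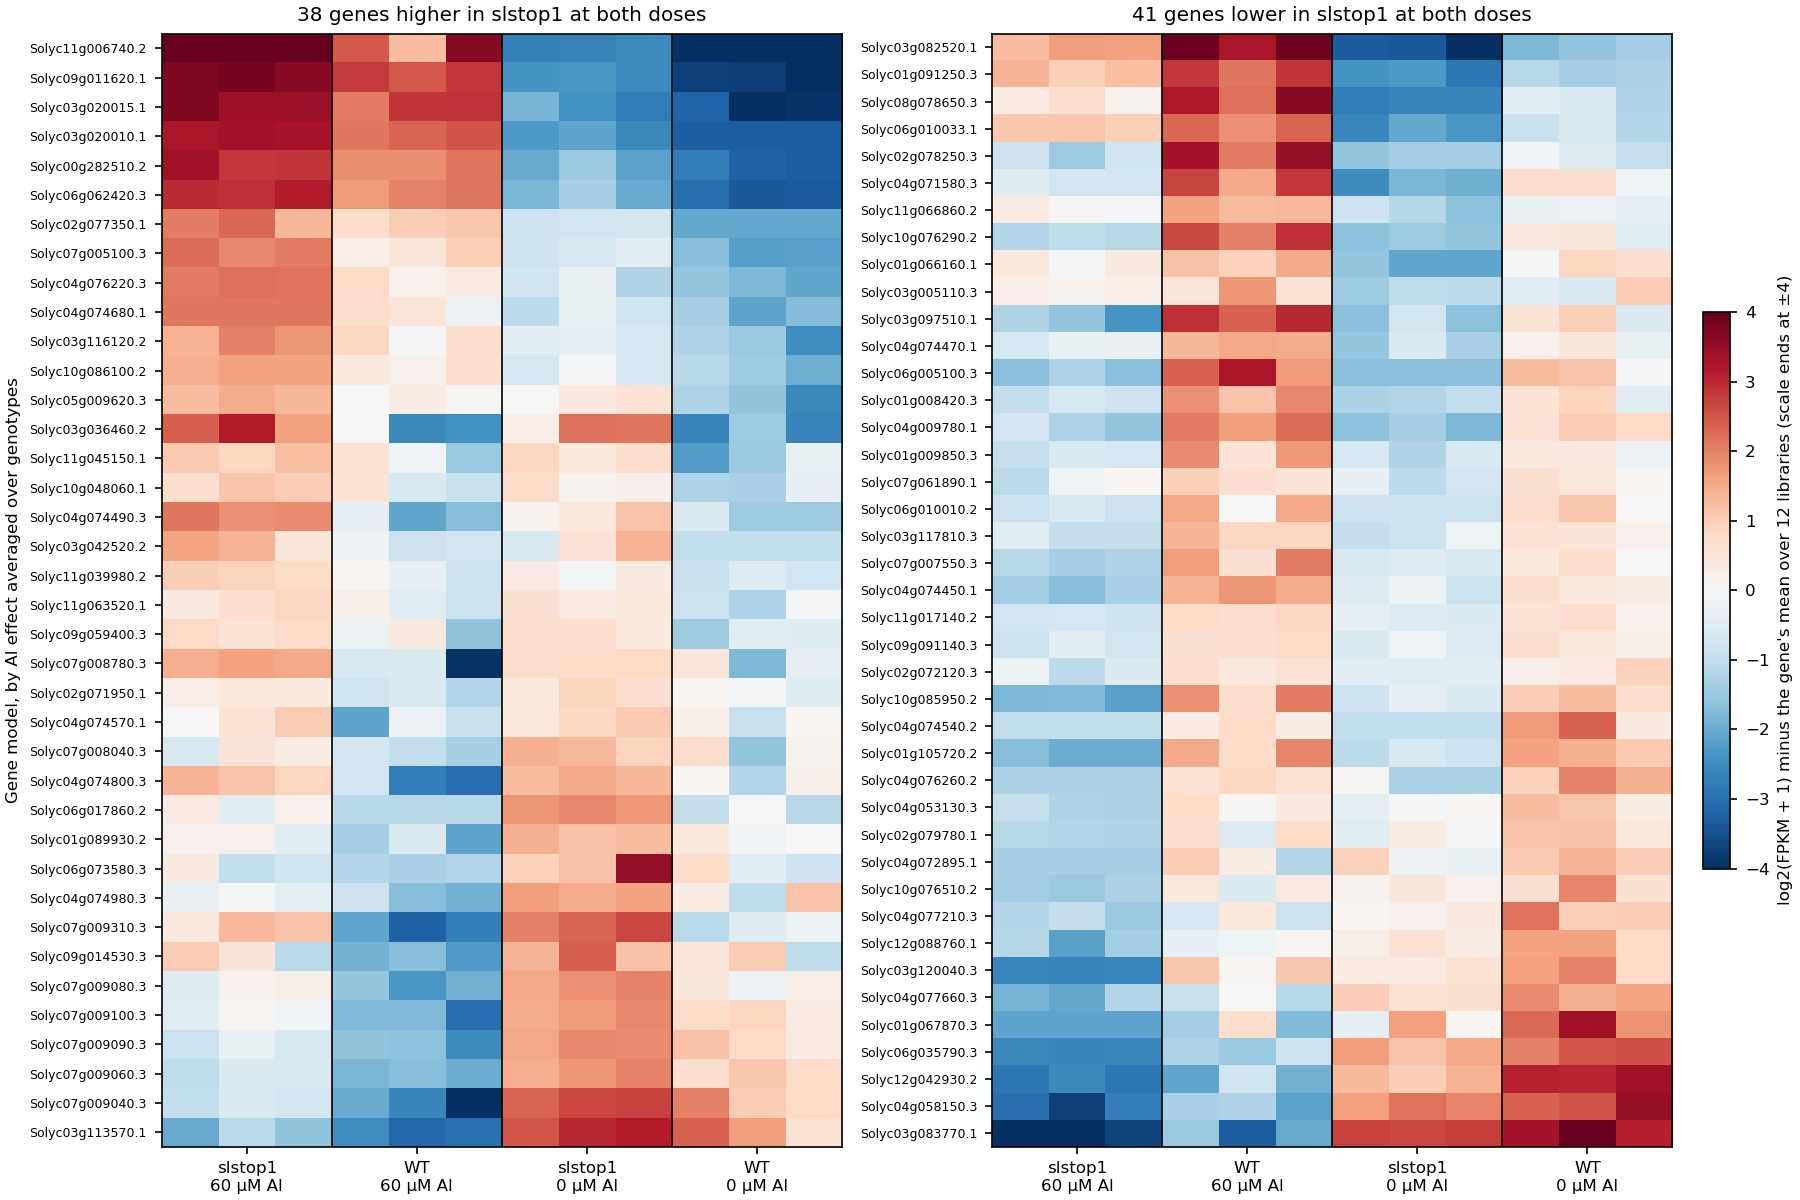
Level of each member in the 12 libraries, as log2(FPKM + 1) minus the gene's mean over the libraries (colour, scale ending at ±4), for the 38 higher genes (left) and the 41 lower genes (right). Columns are the 3 replicates of each group and rows are ordered by the Al effect averaged over genotypes, from the strongest rise at the top to the strongest fall at the bottom. The left panel holds 14 genes that rose and 15 that fell with Al, and the right panel 16 that rose and 15 that fell.

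The identifiers placed the members unevenly. Chromosome 4 held 17 of the 79 (21.5%) and 8.36% of the 13261 genes, chromosome 3 held 12 (15.2%, against 10.4%), and chromosome 7 held 11 (13.9%, against 7.49%). Of the 38 higher genes, 9 (23.7%) were on chromosome 7, and of the 41 lower genes 11 (26.8%) were on chromosome 4. Chromosomes 5 and 8 held 1 member each, beside 918 and 985 genes with the expression minimum. These shares are a description, since neighbouring genes are not independent. Runs of members lying within 10 genes of each other numbered 9 and held 27 members, and the other 52 members lay alone. Beside the long runs on chromosomes 4 and 7 described next, the runs were pairs. On chromosome 3 both pairs were made of higher genes, among them Solyc03g020010.1 with Solyc03g020015.1. Pairs on chromosome 6 (Solyc06g010010.2 with Solyc06g010033.1) and chromosome 10 (Solyc10g076290.2 with Solyc10g076510.2) were made of lower genes. On chromosomes 2, 4 and 10, 3 pairs joined a higher with a lower gene.

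On chromosome 7, 8 higher genes and no lower gene lay between Solyc07g008040.3 and Solyc07g009310.3. This was a stretch of 74 genes with the expression minimum (10.8% members, and 7.45% of that chromosome's genes). The lower member Solyc07g007550.3 lay before it, at place 135 in identifier order on that chromosome, where the stretch began at place 159. Solyc07g008040.3 was listed at 0 in replicate 2 of WT without Al. Leaving out that library made the ratio without Al 0.78 for this gene and 0.62 for Solyc07g008780.3. For Solyc07g009060.3 it was 0.76 without replicate 3 of slstop1 without Al. These values are under the 0.8 of the rule, which the other members of the stretch kept without any 1 library. The core of the stretch was a run of 6 members in which each lay within 10 genes of the next, with non-members between them. In the 17 genes spanned by that run the median genotype ratio was 0.67 with Al and 0.93 without Al. Of the 17 ratios, 12 with Al and 13 without Al were above 0. The 6 members are among these 17 genes and were chosen for ratios of at least 0.8, so these values partly describe the selection. Solyc07g009100.3, the most abundant of the run, read 303, 426 and 379 FPKM in slstop1 with Al, against 118, 118 and 48.1 FPKM in WT with Al. In the absence of Al it read 1145, 1332 and 1554 FPKM in slstop1, against 679, 733 and 515 FPKM in WT. The others in the run, Solyc07g009040.3, Solyc07g009060.3, Solyc07g009080.3 and Solyc07g009090.3 beside Solyc07g009310.3 above, averaged 60.8 ± 7.79, 95.9 ± 17.2, 134 ± 33.7 and 103 ± 20.0 FPKM in slstop1 with Al, against 14.8 ± 10.7, 43.0 ± 4.13, 35.2 ± 9.53 and 41.3 ± 13.7 FPKM in WT with Al (SD, n = 3). Without Al the same 4 averaged 638 ± 98.3, 527 ± 94.1, 470 ± 69.4 and 539 ± 74.7 FPKM in slstop1, against 272 ± 131, 283 ± 48.3, 153 ± 36.0 and 270 ± 80.3 FPKM in WT. All 6 members of the run were higher in slstop1 at each dose and lower with Al than without.

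On chromosome 4 the picture was mixed. Between Solyc04g071580.3 and Solyc04g077660.3, 190 genes with the expression minimum (17.1% of that chromosome's) held 14 of its 17 members, 6 higher and 8 lower. A run of 7 members inside it interleaved the directions. By identifier order they were Solyc04g074450.1 and Solyc04g074470.1 (lower), Solyc04g074490.3 (higher), Solyc04g074540.2 (lower), and Solyc04g074570.1, Solyc04g074680.1 and Solyc04g074800.3 (higher). Over the 18 genes spanned the median ratio was -0.27 with Al and -0.02 without Al, near that of all genes. These 18 include the 7 members, whose ratios had to pass the rule. When some 1 library was left out, the ratio without Al reached -0.796 for Solyc04g074450.1, 0.63 for Solyc04g074570.1 and 0.77 for Solyc04g074680.1. These are under 0.8 in size, and the other members of the run stayed at 0.8 or more. Both stretches were delimited after the positions had been seen.

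Within that run the contrasts between neighbours were large. Solyc04g074470.1 read 54.3, 73.5 and 74.1 FPKM in slstop1 with Al, against 225, 260 and 249 FPKM in WT with Al, and 30.2, 58.6 and 35.9 FPKM in slstop1 without Al, against 101, 123 and 72.2 FPKM in WT without Al. Solyc04g074490.3, 2 places further along, read 24.3, 20.0 and 20.7 FPKM in slstop1 with Al, against 3.73, 0.39 and 0.83 FPKM in WT with Al, and 5.51, 6.95 and 12.1 FPKM in slstop1 without Al, against 2.91, 1.21 and 1.19 FPKM in WT without Al. The first was lower and the second higher in every slstop1 library. Solyc04g074680.1 averaged 192 ± 2.06 FPKM in slstop1 roots against 57.3 ± 17.0 FPKM in WT with Al, and 26.9 ± 7.68 FPKM in slstop1 roots against 12.9 ± 3.66 FPKM in WT without Al (SD, n = 3). Solyc04g074800.3 averaged 27.1 ± 4.66 FPKM in slstop1 roots against 2.65 ± 3.36 FPKM in WT with Al, and Solyc04g074570.1 averaged 82.9 ± 28.5 FPKM in slstop1 roots against 29.4 ± 17.4 FPKM in WT with Al. Their means without Al were 31.6 ± 3.20 FPKM in slstop1 roots against 10.3 ± 4.93 FPKM in WT for Solyc04g074800.3, and 96.0 ± 20.4 FPKM in slstop1 roots against 50.8 ± 19.0 FPKM in WT for Solyc04g074570.1.

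**Figure D4:**
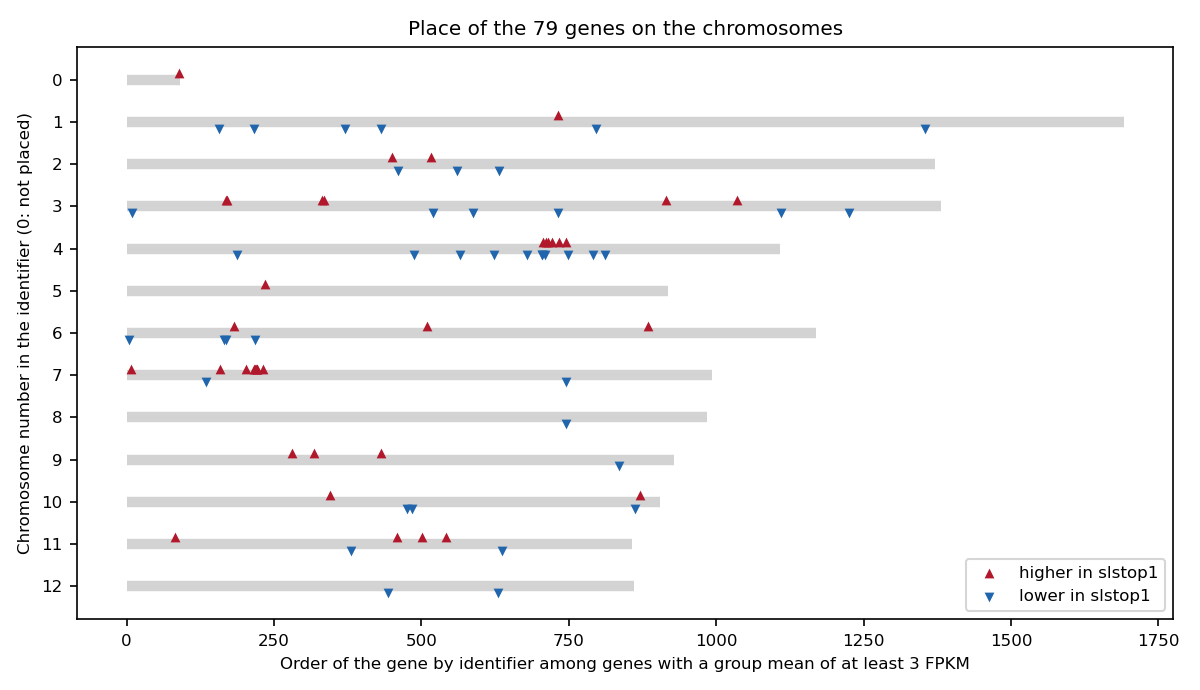
Place of the 79 members by chromosome (rows; 0 stands for sequence not placed on a chromosome) and by identifier order among genes with a group mean of at least 3 FPKM (horizontal; the grey bar spans all such genes). Upward red marks are genes higher in slstop1 and downward blue marks genes lower. In the first part of chromosome 7 lie 9 red marks with a blue mark among them, and both colours crowd on chromosome 4.

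The response to Al averaged over both genotypes uses a contrast of group means that is orthogonal to both genotype contrasts. It was tested with limma on log2(FPKM + 1) across 15903 genes. All 79 members were among the tested genes. Of the 38 higher genes 14 rose (36.8%), 15 fell (39.5%) and 9 did not pass at an adjusted p of 0.05. Of the 41 lower genes 16 rose (39.0%), 15 fell (36.6%) and 10 did not pass. Over all genes tested 25.7% rose and 47.9% fell. The median effect was 0.39 in the higher genes, 0.09 in the lower genes and -0.36 in all genes tested, on the log2 scale. Calls in members were thus evenly split, 30 rises and 30 falls, where 65.0% of the calls over all genes were falls. The genes tested include some below the expression minimum that members had to meet. Where a mean of at least 5 FPKM was required, falls made up 48% of the calls in members and 60.1% in all genes. After median-of-ratios scaling the members had 40 rises and 25 falls (38.5% falls) and all genes 53.1% falls. After quantile normalisation the shares of falls were 39.3% in members and 50.3% in all genes. The members' calls thus had the smaller share of falls under each scaling. The rule bears on these shares, since the added 1 shrinks the ratio of a gene near 0 FPKM at either dose. It also required genotypes without overlap, which favours genes with a small spread within groups. The limma SE and adjusted p of the members draw on that same spread, so they are not free of the selection. How far the selection set the calls and their shares was not tested.

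The strongest 3 rises among members were all in genes higher in slstop1. Solyc11g006740.2 (chromosome 11) read 855, 841 and 801 FPKM in slstop1 with Al against 4.37, 4.47 and 4.92 FPKM in slstop1 without Al, and 191, 81.2 and 438 FPKM in WT with Al against 0.34, 0.87 and 0.88 FPKM in WT without Al. Its averaged Al effect was 7.02 ± 0.314 on the log2 scale (SE; limma adjusted p = 9.49e-09). Solyc09g011620.1 (6.43 ± 0.139, limma adjusted p = 1.90e-10) and Solyc03g020015.1 (6.13 ± 0.222, limma adjusted p = 2.72e-09) followed, and the abundant Solyc03g020010.1 rose by 5.63 ± 0.108 (limma adjusted p = 1.04e-10). The slstop1 libraries of Solyc11g006740.2 were tightly grouped and those of WT with Al spread several-fold. Solyc09g011620.1 averaged 1052 ± 69.3 FPKM in slstop1 roots against 511 ± 68.3 FPKM in WT with Al, and 13.7 ± 1.11 FPKM in slstop1 roots against 4.04 ± 1.38 FPKM in WT without Al (SD, n = 3).

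The strongest falls came from both sides. Solyc03g083770.1, lower in slstop1, read 0.89, 0.64 and 1.30 FPKM in slstop1 with Al against 201, 194 and 204 FPKM in slstop1 without Al, and 9.84, 2.05 and 6.52 FPKM in WT with Al against 304, 504 and 262 FPKM in WT without Al. The averaged effect was -6.24 ± 0.278 (SE; limma adjusted p = 9.15e-09). Solyc04g058150.3, also lower in slstop1, had an effect of -4.72 ± 0.252 (limma adjusted p = 2.91e-08), and Solyc03g113570.1, higher in slstop1, one of -4.43 ± 0.288 (limma adjusted p = 1.18e-07). Solyc04g058150.3 averaged 3.27 ± 1.34 FPKM in slstop1 roots against 12.2 ± 4.26 FPKM in WT with Al, and 142 ± 26.3 FPKM in slstop1 roots against 271 ± 124 FPKM in WT without Al. Solyc03g113570.1 averaged 15.0 ± 5.23 FPKM in slstop1 roots against 5.37 ± 1.62 FPKM in WT with Al, and 345 ± 80.1 FPKM in slstop1 roots against 148 ± 83.5 FPKM in WT without Al. Each of the 3 was thus abundant in both genotypes without Al. All 6 genes of the chromosome 7 run fell, by between 1.74 (Solyc07g009310.3, limma adjusted p = 4.96e-05) and 3.85 (Solyc07g009040.3, limma adjusted p = 2.53e-06) on the log2 scale.

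Among the most different lower genes the Al responses were mixed. Solyc04g071580.3 rose by 1.70 ± 0.247 (limma adjusted p = 7.13e-05), Solyc03g082520.1 by 5.19 ± 0.183 (limma adjusted p = 2.40e-09) and Solyc08g078650.3 by 3.40. Solyc01g067870.3 fell by 2.93 (limma adjusted p = 0.000158). The falls of Solyc01g105720.2 (-0.51, limma adjusted p = 0.0348) and Solyc04g076260.2 (-0.61, limma adjusted p = 0.0452) did not hold in 12 of 20 and 14 of 19 alternatives. SlSTOP1 (Solyc11g017140.2) had an averaged effect of 0.00 as deposited (limma adjusted p = 0.991) and rose by 0.36 after median-of-ratios scaling (limma adjusted p = 0.00163). Of the chromosome 4 run, Solyc04g074680.1 rose by 2.44 and Solyc04g074470.1 by 1.03, Solyc04g074800.3 fell by 1.06 (limma adjusted p = 0.0239, not held in 7 of 20 alternatives), and the other 4 did not pass. Each of these 4 passed in at least 1 alternative. Solyc04g074490.3 passed as a rise in 4 of 20 (lowest limma adjusted p = 0.0112) and Solyc04g074450.1 as a rise after median-of-ratios scaling (limma adjusted p = 0.00869). Solyc04g074540.2 passed as a fall without replicate 3 of WT without Al (limma adjusted p = 0.000776), and Solyc04g074570.1 as a fall without replicate 2 of WT with Al (limma adjusted p = 0.0392).

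**Figure D5:**
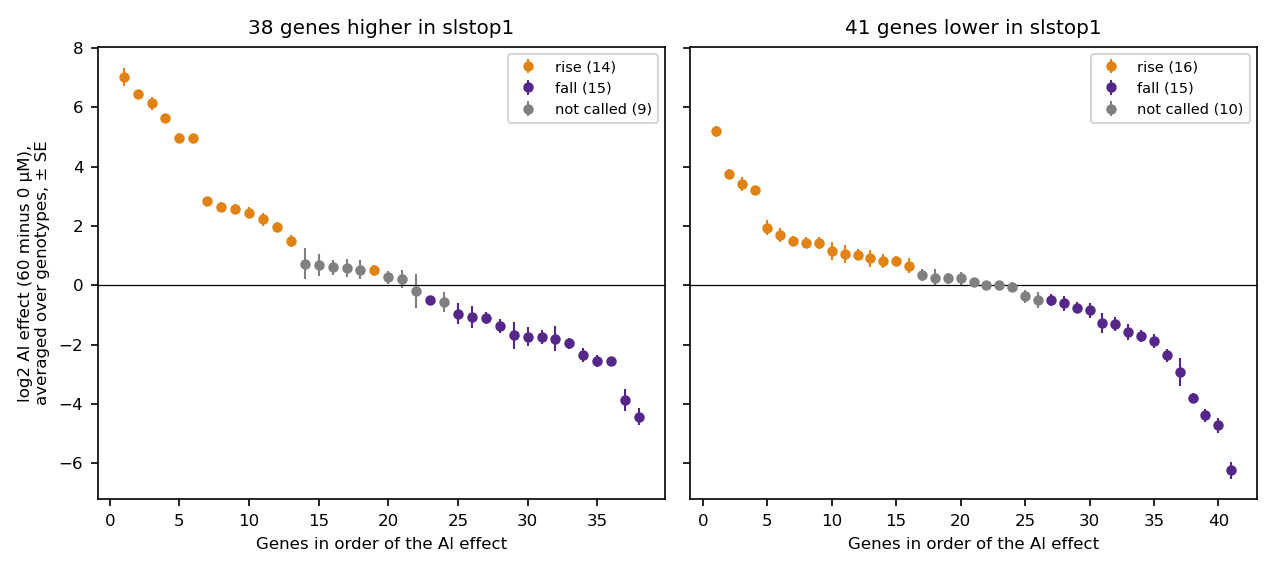
Al effect averaged over genotypes (log2 scale, 60 minus 0 µM Al, ± limma SE) for each of the 38 higher (left) and 41 lower (right) genes, in order of size. Orange genes rose, violet genes fell and grey genes did not pass an adjusted p of 0.05; the points run from 7.02 to -4.43 on the left and from 5.19 to -6.24 on the right.

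Within each genotype the Al and no-Al libraries were compared by overlap alone, since the gap between the 2 Al responses is the gap between the 2 genotype ratios and so is not free of the rule. Of the higher genes, 13 lay higher and 10 lower with Al in both genotypes without overlap (as did 22.1% and 39.9% of the 13261 genes), 6 overlapped in both genotypes (16.2%), and none moved in opposite directions. In slstop1 alone 4 lay higher (6.44%) and 3 lower (11.0%) with Al, and in WT alone 1 lay higher (2.48%) and 1 lower (1.67%). Of the lower genes, 9 lay higher and 9 lower with Al in both genotypes and 5 overlapped in both. In slstop1 alone 1 lay higher and 7 lower, and in WT alone 7 lay higher and 1 lower. Here "alone" means that the libraries of the other genotype overlapped, which is no test of a difference.

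The 7 that lay higher with Al in WT while their slstop1 libraries overlapped included Solyc06g005100.3, Solyc04g009780.1 and Solyc04g074470.1, described above. The remaining 2 lower genes moved in opposite directions (0.294% of all 13261 genes did so), and 1 of them was SlSTOP1, whose change in slstop1 turned from -0.31 as deposited to 0.16 after median-of-ratios scaling, beside 0.29 in WT as deposited. The other, Solyc04g074450.1, read 15.6, 12.1 and 16.2 FPKM in slstop1 with Al, against 112, 144 and 118 FPKM in WT with Al. Without Al it read 29.0, 35.7 and 22.5 FPKM in slstop1, against 64.8, 55.1 and 50.8 FPKM in WT. Its genotype ratio was -3.00 with Al and -0.95 without Al.

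Single libraries bore on which genes qualified. Replicate 1 of slstop1 without Al was the lowest of its group in 55.3% of the higher and 51.2% of the lower genes, against 31.1% of all 13261. Replicate 1 of WT without Al was the highest of its group in 55.3% of the higher genes and in 30.3% of all. Replicate 2 of WT with Al was the lowest of its group in 26 of the 41 lower genes (63.4%) and in 37.0% of all 13261. Replicate 3 of WT without Al was the lowest of its group in 28 of the 41 (68.3%) and in 55.7% of all genes. Its part in the choice of members was measured by leaving it out: 116 genes were then lower and 39 higher, holding 38 of the 41 and 37 of the 38. Leaving out replicate 2 of slstop1 without Al gave 62 lower genes. In 28 of the 79 members at least 1 ratio was under 0.8 in size when some 1 library was left out, among them Solyc03g083770.1 (-0.50 without Al) and Solyc04g058150.3 (-0.48 without Al). Fewer libraries make overlap rarer by construction. The libraries also differed in composition: the 10 most abundant genes held 10.8% to 11.7% of the summed FPKM in slstop1 with Al, 6.87% to 8.20% in WT with Al, 5.42% to 6.11% in slstop1 without Al and 5.08% to 6.60% in WT without Al. Its part in the genotype ratios with Al was measured only by the scalings above.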

How the data were processed

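Messenger RNA was sequenced in 12 tomato root libraries, grouped and numbered by the sample titles. The table that the authors deposited holds 1 value per gene model and library, taken here as FPKM, which divides aligned fragments by transcript length and library total; the table names no unit, and unequal column sums from 696287 to 719916 do not separate FPKM from TPM over a larger set. Alignment and assembly tools given by the submitters' processing notes, with no version or role, are HISAT2, TopHat2, Cufflinks and StringTie; the genome build is not given in the sources used here. Since the values are already divided by library total, depth is unknown and no counting interval is given.

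Genotype ratios used group means with a pseudocount of 1. The Al effect averaged over genotypes was estimated with limma 3.58.1 under R 4.3.3 (group means of all 12 libraries, 8 residual degrees of freedom, eBayes with trend, two-sided) on log2(FPKM + 1), which understates changes of low genes, for the 15903 genes reaching 1 FPKM in 3 or more libraries, with Benjamini-Hochberg adjustment over all of them. The procedure was tested on simulated data. Figures and ratios used Python 3.11.15, numpy 2.4.6, pandas 2.3.3 and matplotlib 3.10.9.

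The members, lists and tests were chosen with earlier results of these data known. Named genes are SlSTOP1, the 8 with the largest smaller ratio and the 3 highest in level in each direction, the 2 on each side of the threshold, runs of at least 4 members within 10 genes of each other, the 3 largest rises and falls with Al, and those with opposite Al directions. Lists to be matched by description were not analysed here, since the reference gene table matched no identifier. No members had values identical to another gene's. Alternatives were other thresholds, expression minimums, pseudocounts, filters and scalings, a replicate block, eBayes without trend, and leaving out each library.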

Additional observations from a re-analysis of the deposited data

Results flagged for a closer look

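Both flagged genes are lower in slstop1 and moved in opposite directions with Al, every slstop1 library one way and every WT library the other; the difference was not tested. The genotype ratio with Al minus that without Al, on the log2 scale, was -2.06 for Solyc04g074450.1 and -0.599 for SlSTOP1 (Solyc11g017140.2). The pattern of SlSTOP1 depended on scaling: its change with Al in slstop1 was -0.31 as deposited, 0.16 after median-of-ratios scaling and -0.10 after quantile normalisation, beside 0.29, 0.56 and 0.21 in WT. For Solyc04g074450.1 the change was -0.94, -0.50 and -0.62 in slstop1 and 1.12, 1.37 and 1.05 in WT, and its slstop1 libraries overlapped after median-of-ratios scaling.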

How the results depend on the processing

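Counts of members moved with the rule. The lower genes numbered 68 at a threshold of 0.6, 24 at a threshold of 1 and 19 with a pseudocount of 5; the higher genes numbered 55, 28 and 26. Leaving out 1 library gave 36 to 116 lower and 37 to 56 higher genes. No genotype ratio of a member changed sign under the other pseudocounts, the scalings or without any 1 library. For Al, 4785 genes fell when a mean of at least 5 FPKM was required, which tests fewer genes; without any 1 library 28 to 33 members rose and 27 to 29 fell. Of the 60 members called for Al, 51 stayed called in every alternative that gave a value, 9 were lost in at least 1, and none reversed. Of the 19 not called, 16 passed in at least 1 alternative. Replicate numbers did not pair the libraries: correlations of same-numbered deviations ran from -0.24 to 0.0925, none of 18 over 0.1. With the replicate number as a block, 4000 genes rose and 7536 fell, among them 30 and 28 members.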
